A study of Mus musculus with 36 samples.

Results

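The mouse mitochondrial chromosome carries 37 annotated genes, and all of them were followed here through 3 brain regions and 4 genotypes. The members were the genes on that chromosome whose GENCODE M21 symbols start with mt-, which gave 13 coding genes, 22 tRNA genes and 2 rRNA genes out of the 38924 genes in each deposited table. The study sequenced poly(A)-selected RNA, from 500 ng of total RNA each, of hypothalamus, cortex and brainstem of C57BL/6 mice in 36 libraries, 3 for each of 12 groups. It compared 2 mouse models of narcolepsy with their own wild types. Hcrt/Orexin-ataxin-3 transgenic mice express an ataxin-3 transgene from the promoter of the hypocretin (orexin) gene, which kills hypocretin neurons, and their titles mark the transgene as present on 1 of a pair of chromosomes (tg/+). Hcrt/Orexin knockout mice lack the neuropeptide gene and keep the cells. Hcrt/Orexin-ataxin-3 wildtype and Hcrt/Orexin wildtype mice were the controls of each line. The sources used here do not give age, sex or any pooling of animals. The labels call the 3 libraries of a group replicates without saying that they came from separate animals, so p-values measure only the spread between these libraries.

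Mitochondrial DNA is transcribed from both strands into long RNAs that span many genes. The tRNAs lie between most of the other genes, and cutting them out releases the rRNAs and the messenger RNAs, which then receive short poly(A) tails. Most genes are read from the transcript of the heavy strand, while mt-Nd6 is the lone coding gene read from the other strand. The coding genes make subunits of respiratory complex I (the Nd genes), complex III (mt-Cytb), complex IV (the Co genes) and ATP synthase (the Atp genes), and the remaining subunits of those complexes come from nuclear genes. Copies of mitochondrial DNA are also found in the nuclear genome, and a read that fits both places has no single origin.

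Such a copy coincided with the stretch of the chromosome in which nearly nothing was counted. Of the 13 coding genes, 7 held 66673 to 20335463 counts summed over the 36 libraries, and the other 6 held 263 counts together. Those 6 are neighbours: mt-Co2 (4 counts in all libraries together), mt-Atp8 (1 count), mt-Atp6 (4 counts), mt-Co3 (0 counts), mt-Nd3 (254 counts) and mt-Nd4l (0 counts). In the GRCm38 annotation, the stretch from base 6381 to base 11042 of the mitochondrial chromosome has a counterpart of pseudogenes on chromosome 1, from 24611535 to 24616197 on the minus strand. Of all 100-base windows of each gene, 99.49% of those of mt-Co2, 99.48% of mt-Atp6, 99.85% of mt-Co3, 97.59% of mt-Nd3 and 98.48% of mt-Nd4l also stood in an annotated transcript from outside the mitochondrial chromosome. The 783 bases that mt-Co3 shares with Gm28437, the 681 that mt-Co2 shares with Gm28661, the 678 that mt-Atp6 shares with Gm10925 and the 294 that mt-Nd4l shares with Gm10222 were all identical. The first 60 bases of mt-Co3 and of Gm28437 (the latter at chr1:24613912-24613971, minus strand) are shown because no letter separates them.
mt-Co3: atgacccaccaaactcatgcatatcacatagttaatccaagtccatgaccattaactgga
Gm28437: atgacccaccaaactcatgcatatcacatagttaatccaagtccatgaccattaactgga

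The member of this stretch with the most counts was mt-Nd3, and it was also the one whose annotated nuclear counterpart differed from it. Its 345 aligned bases matched Gm28438 at 344, and the difference was T3C (T in mt-Nd3, C in the pseudogene, counted from 1 at the gene's 5′ end). The first 33 bases of both are shown with that base in capitals; the Gm28438 bases lie at chr1:24613087-24613119 on the minus strand.
mt-Nd3: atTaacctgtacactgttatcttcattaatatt
Gm28438: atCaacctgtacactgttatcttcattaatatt
mt-Nd3 had counts in every library, from 2 to 25. Its neighbours mt-Co2 and mt-Atp6 never exceeded 2 and 1 counts in a library. All 5 tRNA genes inside the stretch (mt-Ts1, mt-Td, mt-Tk, mt-Tg and mt-Tr) held 1 count together. No annotated transcript covers mt-Atp8 or these tRNAs on the nuclear side, and the nuclear genome sequence was not used here, so their match was not tested. Sequences and positions are from GENCODE M21 on GRCm38.

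At both ends of the stretch a gene was cut by it. Bases 1054 to 1545 of mt-Co1 align with Gm29216 and differ at 6 places (T1056A, C1057T, A1059G, A1060G, C1062A and A1066T, numbered from the first base of mt-Co1), after which 479 bases in a row are identical. Bases 1 to 876 of mt-Nd4 are identical to Gm28439. By 100-base windows, 30.84% of mt-Co1 and 60.75% of mt-Nd4 were shared, against 3.19% of mt-Nd2 (with Gm13339) and 0% of mt-Rnr1, mt-Rnr2, mt-Nd1, mt-Nd5, mt-Nd6 and mt-Cytb. Counts of mt-Co1 and mt-Nd4 were high all the same, at 321740 to 865964 and 78257 to 194648 per library. The deposited tables list reads aligned to more than 1 place on a line of their own and not under any gene; they were 16.9% to 20.7% of a hypothalamic library, 16% to 19.2% of a cortical one and 19.7% to 26.4% of a brainstem one. Of the 7 pseudogenes, only Gm10222 had a line of its own, with 0 to 6 counts per library. How many of the reads with more than 1 place were mitochondrial was not tested, so the levels of the genes in this stretch are not known from these counts.

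The libraries held 21915540 to 47057537 gene counts, which puts a limit of 3 counts at 0.0638 to 0.137 CPM (counts per 1000000 gene counts of the library), for counting error only. Other CPM values in the text are also divided by the library's TMM factor from the fit of 36 libraries, which ran from 0.846 to 1.12. The cut-off of 100 CPM for growth hormone or olfactory marker protein RNA was set without that factor. The largest 95% Wilson interval on a library's mitochondrial share was 0.013 percentage points to each side. Hcrt, the targeted gene, stood at 0.996 to 1.14 CPM in the knockout hypothalamus against 51.4 to 81.2 in its wild type, and at 2.07 to 2.46 CPM in the ataxin-3 transgenic against 101 to 196. Outside hypothalamus, where Hcrt was low in every group, the knockout was not below its wild type: it had 0.886 to 1.29 CPM in brainstem against 0 to 0.141, and 0.35 to 0.44 CPM in cortex against a median of 0.0342 and a highest value of 0.922. Summed marker genes fitted the tissue labels: 6 hypothalamic markers gave 768 to 1346 CPM in hypothalamus and at most 4.04 elsewhere, and 5 brainstem markers gave 484 to 677 CPM in brainstem and at most 1.55 elsewhere. Growth hormone or olfactory marker protein RNA exceeded 100 CPM in 4 hypothalamic libraries, and results that change without them are given both ways. Brainstem libraries 1 and 2 of the ataxin-3 line's wild type stood apart in rRNA and are described with the rRNA genes, and each brainstem result that rests on them is also given without them.

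Of the 9 well-counted coding and rRNA genes, mt-Co1 had the highest level per length in 35 of the 36 libraries and mt-Nd6 the lowest in all 36. The exception was 1 of the 2 rRNA-rich libraries, number 2 of the ataxin-3 line's wild-type brainstem, where mt-Rnr1 was highest. Levels here are CPM scaled with TMM factors and divided by gene length in kilobases, as mean ± SD over the 12 libraries of a tissue. mt-Co1, the catalytic subunit of complex IV, was at 7413 ± 544 in hypothalamus, 11806 ± 619 in cortex and 13049 ± 806 in brainstem. mt-Cytb, the complex III subunit, was at 5878 ± 504 in hypothalamus, 8262 ± 672 in cortex and 8742 ± 844 in brainstem. mt-Nd1, a complex I subunit, was at 5823 ± 530, 8415 ± 589 and 9859 ± 784 in the same order of tissues, so it and mt-Cytb came next in each tissue and lay within their SDs in hypothalamus and cortex. mt-Nd2 followed at 3741 ± 336, 5749 ± 438 and 6456 ± 764. mt-Nd5 was at 2481 ± 285, 3468 ± 358 and 3588 ± 414, and mt-Nd4 at 2094 ± 166, 3055 ± 224 and 3070 ± 275. Counted over the 502 bases outside the shared windows, mt-Nd4 would stand at 5749 ± 456 in hypothalamus and 8387 ± 614 in cortex, and mt-Co1, over 802 bases, at 14281 ± 1049 and 22744 ± 1192. The place of mt-Nd4 in the order thus changed with the length used, from eighth to the fourth in hypothalamus, while mt-Co1 was at the top either way.

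**Figure D1:**
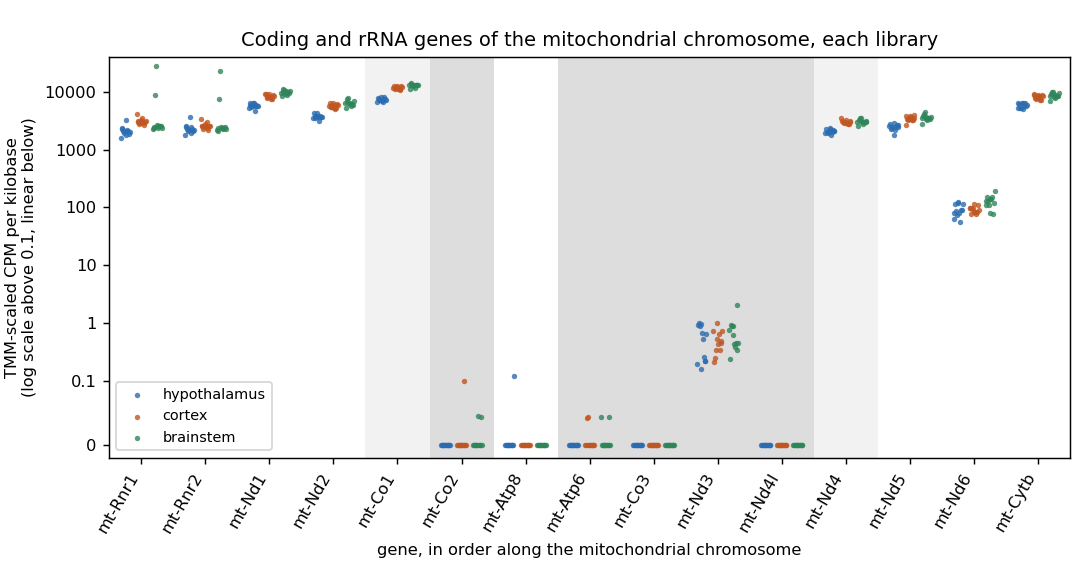
Levels of the 13 coding and 2 rRNA genes in genome order, in TMM-scaled CPM per kilobase (log axis above 0.1, linear below), with 1 point for each of the 36 libraries, coloured by tissue. Dark grey marks genes of which nearly all 100-base windows stand in an annotated nuclear transcript and light grey mt-Co1 and mt-Nd4, which share part; the dark genes and mt-Atp8 lie at or near 0, and mt-Nd6 lies far below the other counted genes.

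The gene of the other strand was rare in all tissues. mt-Nd6, a complex I subunit, was at 91.3 ± 23 CPM per kilobase in hypothalamus, 91.8 ± 12.1 in cortex and 128 ± 32.1 in brainstem. Per 1000 counts of the coding genes of the heavy-strand transcript it gave 1.35 ± 0.313 counts in hypothalamus, 0.91 ± 0.0833 in cortex and 1.16 ± 0.282 in brainstem (SD, n = 12 each). Its 14 bases of overlap with mt-Nd5, and any reads of the opposite strand, could not be separated, because the strand setting of the counting is not given in the sources used here.

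The tRNA genes split into a counted and an uncounted set. In all 36 libraries together, 9 of the 22 held 75 to 8545 counts, 7 held 1 to 9, and 6 held none. mt-Ti (isoleucine) had 103 to 363 counts per library, mt-Tw (tryptophan) 126 to 384, mt-Tm (methionine) 36 to 174 and mt-Tp (proline) 18 to 65. mt-Tq had 4 to 56, mt-Tt 1 to 38, mt-Te 1 to 18, mt-Ta 1 to 11 and mt-Ty 0 to 5. Of the 13 with fewer than 10 counts in all, 5 lay in the stretch with the nuclear copy and 8 elsewhere. By strand, 4 of the 14 tRNA genes of the heavy-strand transcript and 5 of the 8 of the other strand were in the counted set. The counted mt-Ti, mt-Tm, mt-Tw and mt-Tp and the uncounted mt-Th (0 counts) and mt-Tl2 (2 counts) are shown to set genes of like length beside each other; all are whole genes, mt-Tp on the minus strand and the others on the plus strand.
mt-Ti: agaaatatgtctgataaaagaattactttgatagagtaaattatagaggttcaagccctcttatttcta
mt-Tm: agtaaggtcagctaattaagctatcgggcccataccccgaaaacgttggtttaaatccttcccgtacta
mt-Tw: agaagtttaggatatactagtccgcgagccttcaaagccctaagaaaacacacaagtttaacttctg
mt-Tp: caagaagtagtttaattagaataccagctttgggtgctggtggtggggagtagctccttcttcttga
mt-Th: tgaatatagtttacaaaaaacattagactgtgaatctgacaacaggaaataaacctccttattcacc
mt-Tl2: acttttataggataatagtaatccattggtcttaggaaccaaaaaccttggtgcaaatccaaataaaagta
The 4 counted genes shown are 67 to 69 bases long, and the 2 uncounted ones 67 and 71. No 100-base window fits in a gene this short. With 50-base windows none of the 22 tRNA genes had a window in an annotated nuclear transcript, and nuclear copies outside annotated transcripts were not looked at. All tRNA genes together made up 0.00168% ± 0.00023 of gene counts in hypothalamus, 0.00147% ± 0.000179 in cortex and 0.00245% ± 0.000291 in brainstem, and a poly(A) library of this kind is not made to hold mature tRNA.

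Cortex and brainstem libraries held more counted mitochondrial messenger RNA than hypothalamus libraries. The 6 coding genes of the stretch with the nuclear copy held 263 counts in all, so the share is in effect that of the other 7. Reads with more than 1 place, which are under no gene, averaged 18.2%, 16.8% and 21% of hypothalamic, cortical and brainstem libraries. The 13 coding genes made up 3.24% to 4.1% of gene counts in hypothalamus (median 3.74%), 4.54% to 5.37% in cortex (median 5.01%) and 4.81% to 6.18% in brainstem (median 5.67%). Every cortical and every brainstem library was above every hypothalamic library, while cortex and brainstem overlapped. The share was 1.33-fold higher in cortex than in hypothalamus and 1.5-fold higher in brainstem than in hypothalamus (p = 1e-05 for both, the smallest that 100000 two-sided permutations of the libraries can give; adjusted p = 2.14e-05 over 30 comparisons of 10 summary values). Cortex was 0.891 times brainstem (permutation p = 0.00043, adjusted p = 0.000717). The 4 genotypes of a tissue differed little beside this: group means ran from 3.6% ± 0.31 to 3.83% ± 0.166 in hypothalamus, 4.77% ± 0.222 to 5.15% ± 0.216 in cortex and, in brainstem, 5.39% ± 0.526 to 5.8% ± 0.139 (SD, n = 3).

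**Figure D2:**
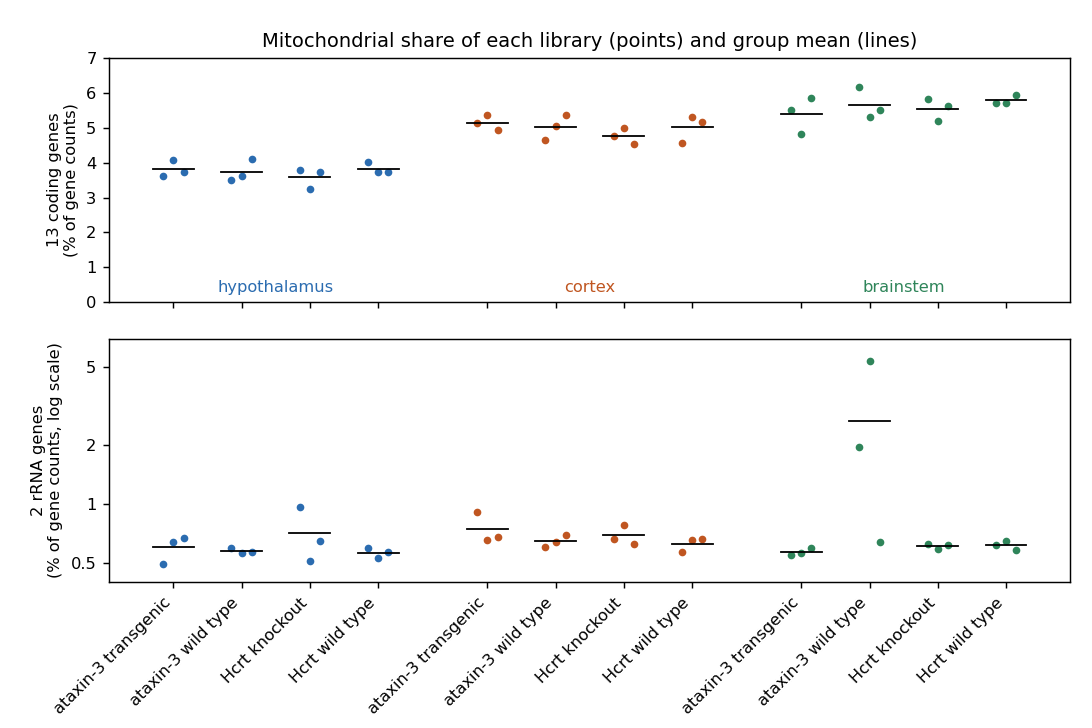
Share of gene counts held by the 13 coding genes (upper panel, linear axis from 0, in percent) and by the 2 rRNA genes (lower panel, log axis, in percent), with 1 point per library and a line at the mean of each group of 3. Cortical and brainstem coding shares lie above all hypothalamic ones, and 2 brainstem libraries of the ataxin-3 line's wild type lie far above the rest in rRNA, at 1.96% and 5.4%.

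Gene by gene, 6 coding genes were higher in both other regions than in hypothalamus. In a fit of all 36 libraries 17 of the 37 members passed the filter on low counts: 8 coding genes (mt-Nd3 among them), both rRNA genes and 7 tRNA genes. Tested with edgeR's quasi-likelihood test, 12 of the 17 differed between cortex and hypothalamus, where 83% of all 17744 genes tested did, so the count by itself does not set the members apart; 10 were higher and 2 lower. In brainstem 15 of the 17 were higher than in hypothalamus and none lower, where 76.8% of all genes differed, 36% being higher and 40.8% lower. mt-Co1 was 10156 to 12856 CPM in hypothalamus (median 11374), 16932 to 19680 in cortex (median 18056) and 17422 to 22436 in brainstem (median 20322). No cortical or brainstem library reached down to the hypothalamic range. It was 1.59-fold higher in cortex than in hypothalamus (log2 difference 0.67, SE 0.04, adjusted p = 4.28e-16) and 1.76-fold higher in brainstem than in hypothalamus (0.82, SE 0.04, adjusted p = 5.13e-18). mt-Nd2 was 1.54-fold and 1.72-fold higher in cortex and brainstem than in hypothalamus, and mt-Nd1 1.44-fold and 1.69-fold. mt-Nd4 was 1.46-fold higher in each, mt-Cytb 1.41-fold and 1.49-fold, and mt-Nd5 1.4-fold and 1.45-fold. All 12 of these coding differences had adjusted p-values of at most 2.89e-08. These comparisons share the hypothalamic libraries, so their agreement is not independent. A higher share of a tissue's RNA can come from more RNA per cell or from more cells rich in these transcripts, which bulk samples cannot tell apart.

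Between cortex and brainstem the coding genes did not all behave alike. In that comparison 10 of the 17 members passed, all lower in cortex, against 84.7% of all genes in either direction, 41.6% higher and 43.1% lower. mt-Nd1 (log2 difference -0.23, SE 0.05, adjusted p = 9.66e-05), mt-Nd2 (-0.16, SE 0.05, adjusted p = 0.00586) and mt-Co1 (-0.14, SE 0.04, adjusted p = 0.00126) were lower in cortex by edgeR's test. mt-Nd4 (-0.01, 95% interval -0.10 to 0.09), mt-Nd5 (-0.05, -0.17 to 0.08) and mt-Cytb (-0.08, -0.19 to 0.03) did not pass. The first 3 genes lie nearer the start of the heavy-strand transcript than the last 3. Summed counts of mt-Nd1, mt-Nd2 and mt-Co1 over those of mt-Nd4, mt-Nd5 and mt-Cytb, a ratio chosen after these differences were seen, were 1.4 to 1.52 in hypothalamus (median 1.48), 1.56 to 1.65 in cortex (median 1.62) and 1.6 to 1.85 in brainstem (median 1.75). Hypothalamus overlapped with neither other tissue. Since the ratio was picked from these libraries its tests are not given as support; mt-Co1 and mt-Nd4, which share bases with the nuclear copy, are on either side of it. mt-Nd2 no longer passed between cortex and brainstem without the 2 rRNA-rich libraries (-0.12, adjusted p = 0.064), and neither did mt-Nd2 (-0.1, adjusted p = 0.188) or mt-Co1 (-0.09, adjusted p = 0.0533) without the libraries numbered 1.

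**Figure D3:**
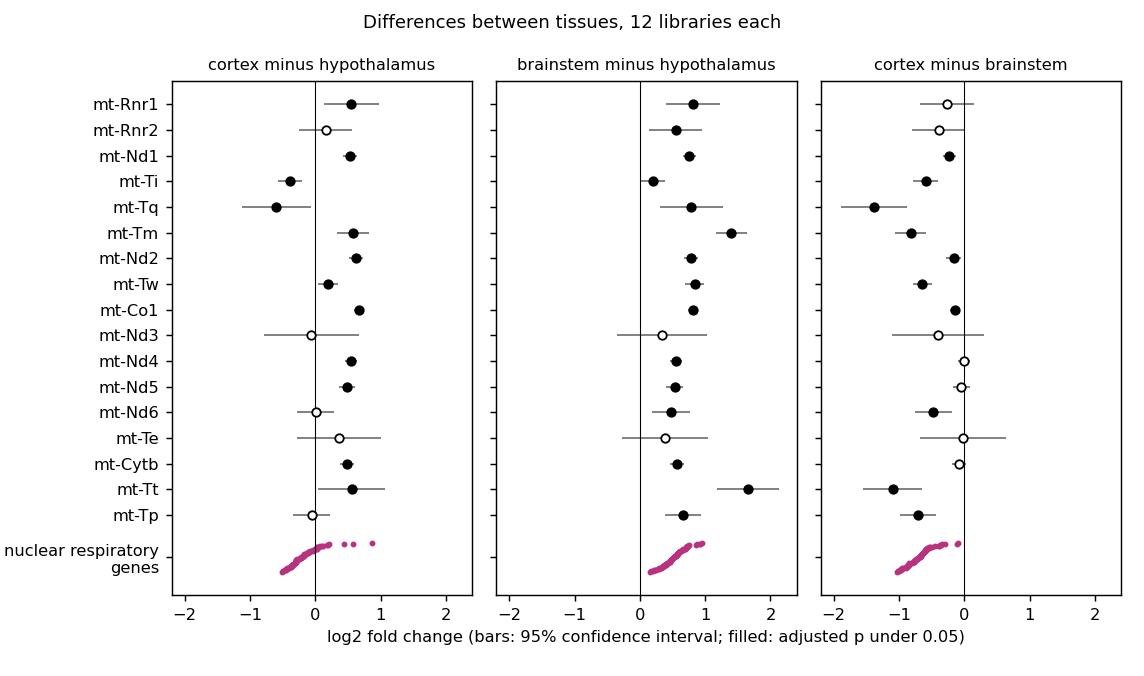
Differences between tissues as log2 fold changes with 95% confidence intervals for the 17 members that passed the filter, in genome order, from the fit of all 36 libraries; filled points have an adjusted p under 0.05. Purple points below are the 75 tested nuclear genes of the respiratory complexes, sorted by value: in brainstem minus hypothalamus they lie to the right of 0 like the mitochondrial coding genes, and in cortex minus hypothalamus most lie to the left while the mitochondrial coding genes except mt-Nd3 and mt-Nd6 lie to the right.

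mt-Nd6 followed another pattern. It was 28.8 to 65.3 CPM in hypothalamus (median 45.8), 39.9 to 58.9 in cortex (median 47.4) and 39.2 to 101 in brainstem (median 67.2), and the 3 ranges overlapped. Cortex and hypothalamus did not differ by edgeR's test (log2 difference 0.01, 95% interval -0.28 to 0.29), while brainstem was 1.39-fold higher than hypothalamus (0.48, SE 0.14, adjusted p = 0.00313) and cortex 0.721 times brainstem (-0.47, SE 0.14, adjusted p = 0.00303). Relative to the heavy-strand coding genes it was 0.689 times as frequent in cortex as in hypothalamus (permutation p = 9e-05, adjusted p = 0.000159) and 0.802 times as frequent as in brainstem (permutation p = 0.0112, adjusted p = 0.016). The latter call on the ratio was lost without the libraries numbered 2 (adjusted p = 0.0925) or 3 (adjusted p = 0.107). The brainstem differences in level lost their call when only the wild-type libraries were used (0.29, adjusted p = 0.225, and -0.27, adjusted p = 0.243), and so did the one against hypothalamus without the libraries numbered 2 (0.44, adjusted p = 0.0818).

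Among the tRNA genes, brainstem had the highest levels. mt-Tw was 3.44 to 5.67 CPM in hypothalamus, 4.3 to 6.54 in cortex and, in brainstem, 7.26 to 11, so that every brainstem library was above every other. mt-Tm was 2.64-fold higher in brainstem than in hypothalamus (log2 difference 1.4, SE 0.12, adjusted p = 4.11e-12 by edgeR), mt-Tt 3.15-fold, mt-Tw 1.79-fold, mt-Tq 1.73-fold, mt-Tp 1.58-fold and mt-Ti 1.15-fold, all past the threshold. In cortex against hypothalamus mt-Tm (1.49-fold), mt-Tt (1.47-fold) and mt-Tw (1.15-fold) were higher, and mt-Ti (0.765 times) and mt-Tq (0.661 times) were lower. mt-Ti and mt-Tm are separated only by mt-Tq, which lies on the other strand, and they moved in opposite directions in cortex. Relative to coding counts, tRNA counts in cortex were 0.657 times those in hypothalamus and 0.673 times those in brainstem (permutation p = 1e-05 and adjusted p = 2.14e-05 for both). On the same ratio brainstem was 0.976 times hypothalamus and did not pass (permutation p = 0.592, adjusted p = 0.634). mt-Te, the least counted of the tested tRNA genes, did not pass in any of the 3 comparisons; without the 4 libraries holding pituitary or nasal RNA it passed against hypothalamus (1.07, adjusted p = 0.0197, in cortex and 1.1, adjusted p = 0.0196, in brainstem). The differences of mt-Tq from hypothalamus lost their call among the wild types alone (-0.59, adjusted p = 0.114, in cortex and 0.36, adjusted p = 0.32, in brainstem), as did those of mt-Tt (0.42, adjusted p = 0.204) and mt-Tw (0.09, adjusted p = 0.38) in cortex. That of mt-Ti in brainstem was lost without the rRNA-rich libraries described next (0.17, adjusted p = 0.146).

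Mitochondrial rRNA was carried into these poly(A) libraries at a steady low share, with a pair of exceptions. mt-Rnr1 and mt-Rnr2, the RNAs of the small and the large subunit of the mitochondrial ribosome, together made up 0.495% to 0.968% of gene counts in hypothalamus, 0.569% to 0.913% in cortex, and between 0.55% and 0.652% in 10 of the 12 brainstem libraries. In brainstem libraries 1 and 2 of the ataxin-3 line's wild type the share was 1.96% and 5.4%, against 0.646% in the third of that group. mt-Rnr1 stood at 8571 and 26842 CPM in those libraries and at 2182 to 2521 CPM in the other 10, and mt-Rnr2 at 12060 and 36949 against 3341 to 3940. As shares of gene counts, the 13 coding genes held 6.18% and 5.32% in the 2 libraries, against 4.81% to 5.96% in the other 10. The CPM are also divided by the library's TMM factor, 0.953 and 0.846 in the 2 libraries. On that scale the coding genes differed far less than rRNA: mt-Co1 was at 22436 and 20287 CPM there, where the other 10 ran from 17422 to 20994. In scaled CPM, mt-Nd1, mt-Nd2, mt-Nd4, mt-Nd5 and mt-Cytb were above the other 10 in both libraries, and mt-Nd6 lay within their range. mt-Nd5 was at 7514 and 8051 CPM against at most 6927, and mt-Cytb at 11346 and 11277 against at most 11126.

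RNAs of nuclear genes that are made without a poly(A) tail stood apart in the same libraries. These RNAs were chosen after the rRNA values were seen. Rn7sk, the small nuclear RNA that restrains transcription elongation, was at 74.6 and 275 CPM in the 2 libraries and at 0.698 to 1.67 in the other 10 of brainstem. Rmrp, the RNA of RNase MRP, was at 6.54 and 38.1 CPM against at most 0.142, and Rpph1, the RNA of RNase P, at 18 and 69.3 against at most 0.451. Gm42418, a locus that overlaps nuclear ribosomal RNA sequence, was at 16352 and 94507 CPM against 328 to 845. The order of the 2 libraries was the same for each of these RNAs and for mitochondrial rRNA. Reads with more than 1 place were 21.7% and 26.4% of these libraries and 20% of the third of the group. Cortex library 2 of the Hcrt knockout also stood apart from its tissue, at lower levels: Gm42418 was at 1466 CPM against at most 343 in the other 11, Rn7sk at 2.02 against at most 0.584 and Rmrp at 0.396 against at most 0.0389. Its rRNA share, 0.783%, was the second highest of cortex. Without it the knockout's effect on the rRNA share in cortex was 0.04 on the log2 scale, against 0.13 with it, and no member was called either way. The part of these RNAs in the rRNA differences was not tested.

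**Figure D4:**
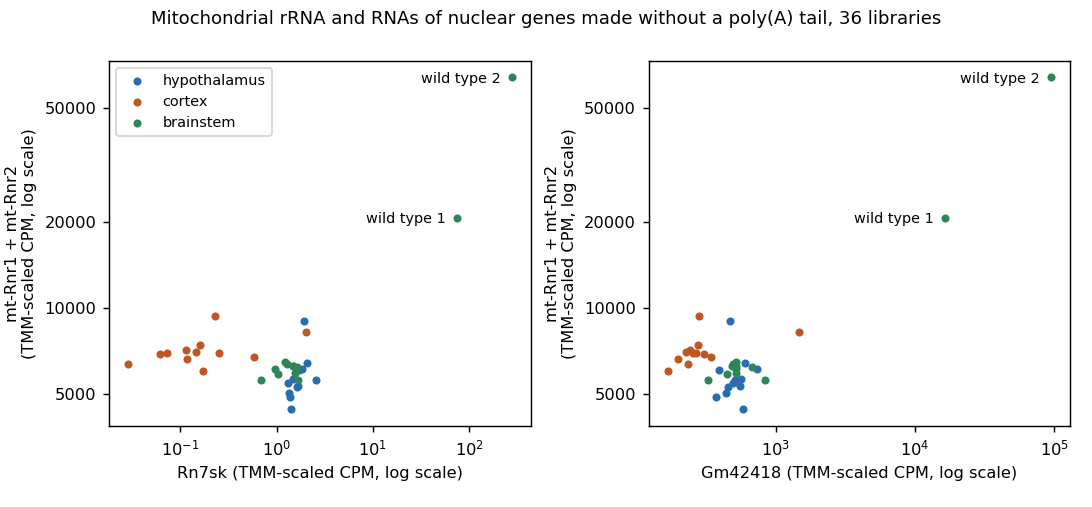
Summed mt-Rnr1 and mt-Rnr2 against Rn7sk (left) and Gm42418 (right), all in TMM-scaled CPM on log axes, 1 point per library and 36 in each panel. The 2 labelled brainstem libraries of the ataxin-3 line's wild type lie at the upper right, apart from the other 34.

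Which tissue had more mitochondrial rRNA rested on these 2 libraries. With them mt-Rnr1 was 1.76-fold (adjusted p = 0.000836 by edgeR) and mt-Rnr2 1.46-fold (adjusted p = 0.0134) higher in brainstem than in hypothalamus. Without them the log2 difference of mt-Rnr1 was 0.23 (adjusted p = 0.0144) and that of mt-Rnr2 was 0.01 (adjusted p = 0.964). For mt-Rnr1 between cortex and brainstem the sign turned, from -0.26 (adjusted p = 0.23) to 0.31 (adjusted p = 0.00147). In cortex against hypothalamus mt-Rnr1 was 1.46-fold higher (log2 difference 0.55, SE 0.20, adjusted p = 0.0149), while mt-Rnr2 did not pass (0.16, 95% interval -0.24 to 0.56). The mt-Rnr1 call was lost without the libraries numbered 1 (0.59, adjusted p = 0.105), among the wild types alone (0.55, adjusted p = 0.202) and without the libraries holding pituitary or nasal RNA (0.52, adjusted p = 0.073). The ratio of mt-Rnr2 to mt-Rnr1 counts was the steadier value: 1.76 to 1.87 in hypothalamus, 1.33 to 1.43 in cortex and, in brainstem, 1.38 to 1.64. Hypothalamus was above both other tissues in every library (0.76 times in cortex and 0.841 times in brainstem, permutation p = 1e-05 and adjusted p = 2.14e-05 for both). Without the 2 libraries the brainstem difference in that ratio was -0.22 on the log2 scale, against -0.25 with them.

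The nuclear genes of the respiratory complexes moved with the mitochondrial genes in brainstem but not in cortex. A list of 76 nuclear subunit genes of complexes I to V was used, of which 75 passed the filter. In brainstem against hypothalamus all 75 were higher, with a median log2 difference of 0.52, where 36% of all genes tested were higher and the median of all genes was -0.04. Among them were Atp5b, the catalytic beta subunit of ATP synthase (0.67, SE 0.04), Cyc1, cytochrome c1 of complex III (0.7, SE 0.04), Ndufa10 of complex I (0.72, SE 0.04) and Cox6a1 of complex IV (0.93, SE 0.06). In cortex against hypothalamus 51 of the 75 were lower and 7 higher (median -0.21), beside 42.7% lower and 40.3% higher among all genes; Ndufb2 of complex I (-0.43, SE 0.04) and Uqcrc2 of complex III (-0.28, SE 0.03) were lower. The 7 that were higher were Atp5l (0.87), Cox6a1 (0.58), Cox8a (0.44), Cox6c (0.21), Ndufb9 (0.2), Atp5d (0.17) and Ndufs3 (0.11); they were named after their values were seen, and 3 genes were higher without the hypothalamic libraries that hold pituitary or nasal RNA. In cortex against brainstem 73 were lower and none higher (median -0.69), beside 43.1% lower and 41.6% higher among all genes.

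Set against each other in every library, the 2 genomes gave a ratio that was lowest in cortex. Summed nuclear respiratory counts per count of the mitochondrial coding genes were 0.222 to 0.319 in hypothalamus (median 0.242), 0.135 to 0.191 in cortex (median 0.148) and 0.178 to 0.279 in brainstem (median 0.227). Every cortical library was below every hypothalamic library, at 0.6 times their level, and cortex was at 0.671 times brainstem (permutation p = 1e-05 and adjusted p = 2.14e-05 for both). The brainstem ratio was 0.895 times that of hypothalamus (permutation p = 0.0269, adjusted p = 0.035), a call that was lost without the 2 rRNA-rich libraries (log2 difference -0.09, adjusted p = 0.13) and without the libraries numbered 1 (adjusted p = 0.311) or 3 (adjusted p = 0.0917). The denominator leaves out the messenger RNAs of the stretch with the nuclear copy, in all tissues alike.

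By complex, most listed nuclear genes of complex I and all of complex II were lower in cortex than in hypothalamus. Of the 11 listed nuclear genes of complex IV, 3 were higher and 1, Cox5a (-0.17, adjusted p = 0.013 by edgeR), was lower in cortex than in hypothalamus, while of the 36 of complex I, 2 were higher and 30 lower. All 4 genes of complex II, which has no mitochondrially coded subunit, were lower in cortex than in hypothalamus (median log2 difference -0.41). Summed nuclear complex I genes were at 2105 ± 208 CPM in cortex, 2481 ± 285 in hypothalamus and 3437 ± 223 in brainstem. The counted mitochondrial complex I genes summed to 24604 ± 1590, 16914 ± 1304 and 26979 ± 2623 CPM in the same order. Whether complexes differed from one another was not tested.

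Among genes that copy, transcribe, cut, polyadenylate, protect or degrade mitochondrial RNA and DNA, some were higher and some lower in each comparison of tissues. Of 38 listed genes, 13 were higher and 19 lower in cortex than in hypothalamus, beside 40.3% and 42.7% of all genes. In brainstem 15 were higher and 7 lower than in hypothalamus, beside 36% and 40.8% of all genes. In cortex 10 were higher and 21 lower than in brainstem, beside 41.6% and 43.1% of all genes. Polrmt, the mitochondrial RNA polymerase, was higher in cortex (log2 difference 0.27, SE 0.04, adjusted p = 5.9e-07 by edgeR) and in brainstem (0.19, SE 0.04, adjusted p = 0.000153) than in hypothalamus. Tfam, which packages mitochondrial DNA and starts its transcription, was lower in cortex (-0.34, SE 0.04) and higher in brainstem (0.16, SE 0.04) than in hypothalamus, and both passed. Lrpprc, which stabilises mitochondrial messenger RNAs, was lower in cortex (-0.4, SE 0.03) and in brainstem (-0.11, SE 0.03). Twnk, the helicase of mitochondrial DNA replication, did not pass in cortex against hypothalamus (-0.01, SE 0.04) and was lower in brainstem (-0.24, SE 0.04). Grsf1, a protein of the mitochondrial RNA granules that binds RNA of the light-strand transcript including that of mt-Nd6, was lower in cortex (-0.47, SE 0.03) and higher in brainstem (0.32, SE 0.03) than in hypothalamus. Polg, the mitochondrial DNA polymerase, was higher in cortex (0.96, SE 0.03).

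Regulators of mitochondrial biogenesis were mostly higher in cortex than in hypothalamus. Of 10 listed genes 9 were higher and none lower there, where 40.3% of all genes were higher and 42.7% lower. In brainstem 4 were higher and 6 lower than in hypothalamus, beside 36% and 40.8% of all genes. Ppargc1a, the coactivator PGC-1 alpha, was higher in cortex (log2 difference 0.47, SE 0.06) and in brainstem (0.91, SE 0.06), and Esrra, the nuclear receptor ERR alpha, in cortex (0.76, SE 0.05) and in brainstem (1.43, SE 0.05), all past edgeR's threshold.

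Cell-type markers moved between tissues too. Summed CPM of 6 neuronal markers were 2869 to 3635 in hypothalamus, 6398 to 6885 in cortex and, in brainstem, 6849 to 7493. Those of 6 oligodendrocyte markers were 4201 to 5743, 3510 to 4668 and 16825 to 20774, and those of 6 astrocyte markers 2609 to 3411, 4319 to 6003 and 3614 to 4312. Of the 6 neuronal markers, 4 were higher and 2 lower in cortex than in hypothalamus, and 5 higher and 1 lower in brainstem. The summed CPM of 5 endothelial markers were 82.2 to 110, 155 to 173 and 150 to 188. Sums of 5 microglial markers were 124 to 152 CPM, 207 to 230 and 121 to 145. The neuronal, astrocyte and endothelial sums were each higher in the same 2 tissues as the mitochondrial coding genes, with no overlap with hypothalamus. The oligodendrocyte sum was high in brainstem alone and the microglial sum in cortex alone. A sum can rest on its most abundant markers. The part of these cell types in the mitochondrial differences was not tested.

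Neither model changed a mitochondrial transcript past the threshold in any tissue. With 3 libraries against 3, edgeR's quasi-likelihood test called 0 of 16 tested members in hypothalamus, 0 of 16 in cortex and 0 of 17 in brainstem, in the ataxin-3 transgenic and in the Hcrt knockout alike. Calls among all genes were few: 0.00597% and 0.0119% in hypothalamus, 0% and 0.0789% in cortex, and 0.00606% and 0.0728% in brainstem, for the transgenic and the knockout in that order. Of the knockout's calls, those lower made up 0.0485% of genes in brainstem and 0.0546% in cortex. Members with an unadjusted p under 0.05 numbered 0 and 1 in hypothalamus, 1 and 0 in cortex, and 7 and 0 in brainstem. Counts at an unadjusted p and counts by DESeq2 are given without the share over all genes. They are therefore not read as results about the members. DESeq2 called 3 members in the transgenic brainstem, mt-Rnr1 (adjusted p = 0.0322), mt-Rnr2 (adjusted p = 0.0497) and mt-Tm (adjusted p = 0.0306), and none in the other 5 comparisons. By edgeR's test no member differed between the wild types of the lines (0, 0 and 4 at an unadjusted p under 0.05 in hypothalamus, cortex and brainstem; DESeq2 called 0, 0 and 2), and 0% of all genes did in each tissue. None differed between the effects of the 2 models (0, 0 and 3 at an unadjusted p under 0.05; DESeq2 called 0 in each tissue), against 0%, 0.0243% and 0% of all genes by edgeR. The ataxin-3 effect on no member differed between tissues by edgeR (3, 5 and 0 at an unadjusted p under 0.05 for brainstem minus hypothalamus, cortex minus brainstem and cortex minus hypothalamus; DESeq2 called 2, 2 and 0, in both cases mt-Rnr1 and mt-Rnr2), nor did the Hcrt effect (0, 1 and 0; DESeq2 called 0 in each), against 0.00564% of all genes for brainstem minus hypothalamus and for cortex minus hypothalamus.

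The 95% intervals give the sizes of change that these libraries still allow. In cortex the effect on mt-Co1 was 0 on the log2 scale in the transgenic (95% interval -0.13 to 0.14) and -0.08 in the knockout (-0.22 to 0.05). In hypothalamus it was -0.03 (-0.25 to 0.18) and -0.11 (-0.33 to 0.10), and in brainstem -0.1 (-0.24 to 0.04) and -0.06 (-0.20 to 0.08). Over the 7 well-counted coding genes, effects ran from -0.27 (mt-Nd5) to 0.08 (mt-Cytb) in hypothalamus, from -0.21 (mt-Nd6) to 0.1 (mt-Nd4) in cortex and from -0.24 (mt-Nd5) to 0.28 (mt-Nd6) in brainstem. Of the coding genes, mt-Nd6 had the widest intervals in hypothalamus and brainstem, from -0.86 to 0.53 in the knockout hypothalamus and from -0.45 to 1.01 in the transgenic brainstem, while in cortex those of mt-Nd5 were the widest.

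**Figure D5:**
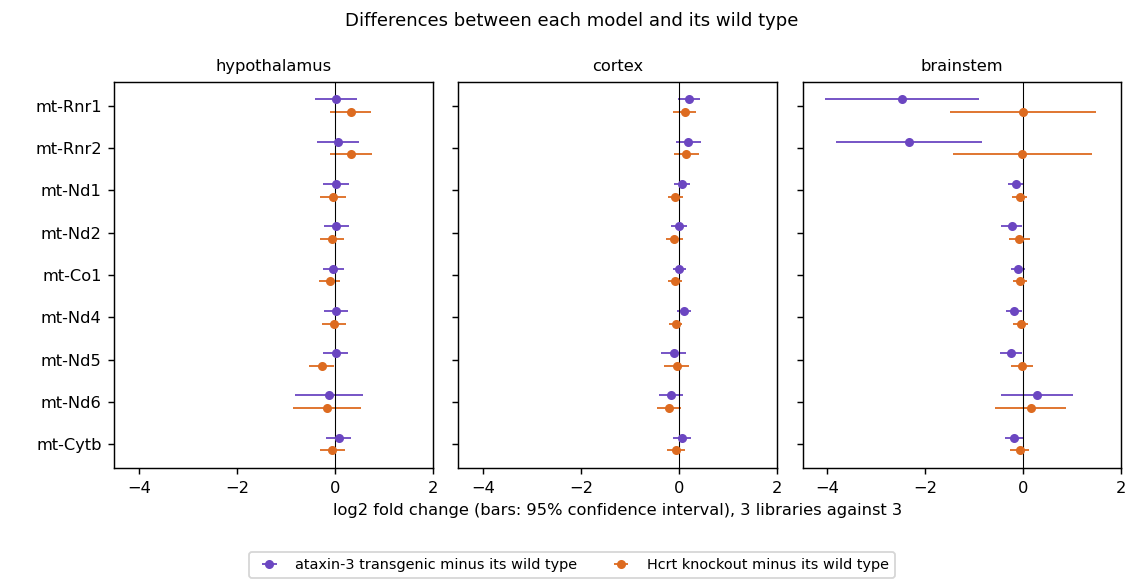
Effect of each model on the 9 well-counted coding and rRNA genes as log2 fold changes with 95% confidence intervals, 3 libraries against 3 in each tissue; purple is the ataxin-3 transgenic and orange the Hcrt knockout, each minus its own wild type. Coding genes lie near 0 in all panels, and mt-Rnr1 and mt-Rnr2 of the transgenic brainstem lie at -2.47 and -2.33 with wide intervals.

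In the brainstem of the ataxin-3 line the control libraries, not the transgenic ones, stood apart in rRNA. mt-Rnr1 was at 2182, 2231 and 2362 CPM in the 3 transgenic libraries, at 8571, 26842 and 2521 CPM in their wild types, at 2451, 2310 and 2446 CPM in the knockouts and at 2467, 2485 and 2244 CPM in the knockout line's wild types. The transgenic libraries were below all 3 of their controls, but the third control lay beside the other groups. The fitted difference was -2.47 on the log2 scale (SE 0.68, adjusted p = 0.542) for mt-Rnr1 and -2.33 (SE 0.65, adjusted p = 0.542) for mt-Rnr2 by edgeR's test, and without the 2 rRNA-rich controls it was -0.17 and -0.18. The comparison between the wild types of the 2 lines, which shares these control libraries, gave 2.38 (adjusted p = 0.204) and 2.21 (adjusted p = 0.206). mt-Tm was at 3.58, 3.81 and 3.15 CPM in the transgenic and at 6.42, 9.12 and 4.94 CPM in their wild types (log2 difference -0.93, SE 0.21, adjusted p = 0.542; -0.5 without the 2 controls).

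In 2 other libraries rRNA was raised and mt-Nd5 lowered. Hypothalamus library 1 of the Hcrt knockout had 0.968% of its gene counts in rRNA and 9.43% of its coding counts in mt-Nd5, where the other 11 hypothalamic libraries had 0.495% to 0.677% and 12% to 14.3%. Cortex library 1 of the ataxin-3 transgenic had 0.913% in rRNA and 9.19% of coding counts in mt-Nd5, where the other 11 cortical libraries had at most 0.783% and 11.9% to 12.8%. Rn7sk and Gm42418 were within the range of their tissue in both libraries. These libraries also had the highest shares of reads with more than 1 place in their tissues, at 20.7% and 19.2%. The relation given next was tested on the libraries that include these 2, and both of its ratios are divided by coding counts. Its p-values are therefore not independent support. In hypothalamus the log2 ratio of rRNA to coding counts and that of mt-Nd5 to coding counts ran opposite over the 12 libraries (Pearson r = -0.939, permutation p = 0.00022, adjusted p = 0.0013 over 6 relations; Spearman rho = -0.678, permutation p = 0.018, adjusted p = 0.037), and r was -0.668 without the 2 libraries farthest from the median. In cortex it rested on such libraries: r was -0.695 (permutation p = 0.072; rho = -0.0839, permutation p = 0.8) and -0.0773 without them. In brainstem the sign was the other way over all 12 libraries, with r = 0.8125 (permutation p = 0.022, adjusted p = 0.048). Spearman's rho there was 0.0559 (permutation p = 0.87). The 2 rRNA-rich libraries stand apart in brainstem, and r over the other 10 was -0.437. The largest change of mt-Nd5 in a model was -0.27 in the knockout hypothalamus (95% interval -0.53 to -0.01, adjusted p = 0.806 by edgeR). That comparison includes hypothalamus library 1 of the Hcrt knockout.

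The coding share followed the share of reads with more than 1 place in rank within cortex. Spearman's rho over the 12 libraries was 0.902 in cortex (permutation p = 0.00016, adjusted p = 0.00096 over 6 relations), 0.776 in hypothalamus (permutation p = 0.0048, adjusted p = 0.014) and 0.573 in brainstem (permutation p = 0.056, adjusted p = 0.083). Pearson's r was 0.585 (permutation p = 0.024), 0.474 (permutation p = 0.13) and 0.0497 (permutation p = 0.86), and without the 2 libraries farthest from the median coding share it was 0.449, 0.308 and -0.265. Both shares come from the same library, and the linear relation did not hold in hypothalamus or brainstem.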

How the data were processed

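Per the submitters' processing notes, the authors trimmed reads with cutadapt 1.2.1, aligned them to GRCm38 with TopHat2 2.0.9 and counted them with HTSeq 0.5.4p3. They deposited whole-number counts per Ensembl gene, not normalized, with separate lines for reads that were not counted, which stayed out of library sizes and tests. Strand setting, overlap mode and annotation release of the counting are not among the sources used here. Names and positions came from GENCODE M21, matching all 37 members. Reads aligned to more than 1 place are on one of those separate lines and under no gene, and what this takes from each member was not tested.

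From the counts, genes were filtered with filterByExpr, scaled with TMM and tested with edgeR 4.0.16 (glmQLFit robust, glmQLFTest; R 4.3.3, limma 3.58.1) in 1 fit of 12 libraries per tissue for the models and 1 fit of 36 for tissues, with Benjamini-Hochberg adjustment over all genes tested and a threshold of 0.05. The tests were run with no replicate block. Shares and ratios were compared on the log2 scale without a pseudocount, by two-sided permutation (100000 resamples between tissues) or by exact permutation (3 against 3, where the smallest p is 0.1; none of 60 had an adjusted p below 0.6). Python 3.11.15 and SciPy 1.17.1 were used. Alternatives were DESeq2 1.42.0, other size factors, library sizes without the members, other filters, a replicate block, fewer groups and leaving libraries out. Those without the rRNA-rich libraries, the length outside nuclear copies and the ratio of early to late genes were added after the data were seen. Correlations across libraries were not among the tests set out beforehand. All coding genes, both rRNA genes, tested tRNA genes and up to 4 genes with the smallest p of each list were named, and Polrmt, Tfam, Lrpprc, Twnk and Ppargc1a always. Untested tRNA genes were given by range and count, and only some of them by name. Members and lists were chosen with earlier results of these data known. On simulated counts with 200 changed genes the fits recovered 42% of 1.5-fold changes in hypothalamus (16738 genes), 77% in cortex (16479 genes) and brainstem (16493 genes), and 83% between tissues (17744 genes). Library pairs of 1 group differed by more than sampling noise throughout.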

Additional observations from a re-analysis of the deposited data

Results flagged for a closer look

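For 2 ratios the ataxin-3 transgenic libraries lay on opposite sides of their wild types in cortex and in brainstem, without overlap in either tissue. tRNA counts per 1000 coding counts were 0.294 to 0.378 in the transgenic cortex against 0.272 to 0.293 in its wild type, and 0.412 to 0.431 in the transgenic brainstem against 0.462 to 0.553. The effect in cortex minus that in brainstem was 0.429 on the log2 scale. mt-Nd6 per 1000 heavy-strand coding counts was 0.777 to 0.952 in the transgenic cortex against 0.96 to 1.03, and 1.2 to 1.3 in the transgenic brainstem against 0.755 to 1.03. The effect in cortex minus that in brainstem was -0.649 on the log2 scale. Neither difference between tissues was tested, and with 3 libraries against 3 no single effect can reach an exact p below 0.1. The 2 ratios were flagged out of 60 model effects on summary values. In cortex the tRNA ranges nearly touched, at 0.2936 for the lowest transgenic library against 0.2931 for the highest wild type. The wild-type brainstem libraries of the knockout line alone ran from 0.688 to 1.67 in the mt-Nd6 ratio, wider than the gap. The brainstem control group holds the 2 rRNA-rich libraries, and their part in both values was not tested beyond leaving them out, which gave brainstem effects of -0.13 for the tRNA ratio and 0.71 for the mt-Nd6 ratio against 1 control library.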

How the results depend on the processing

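Members called between tissues numbered 8 to 12 in cortex against hypothalamus, 11 to 15 in brainstem against hypothalamus and 8 to 12 in cortex against brainstem over the settings run. In the main fit 83%, 76.8% and 84.7% of all genes were called in these comparisons, in that order. Shares of all genes in the other settings, DESeq2 among them, are not given here. DESeq2 called 2 members for the ataxin-3 effect in brainstem minus hypothalamus, 2 for cortex minus brainstem, 3 for the ataxin-3 effect in brainstem and 2 between the brainstem wild types, where edgeR called none. Leaving out 1 library gave 0 to 4 for the brainstem ataxin-3 effect and 0 to 3 between the brainstem wild types, the higher counts without the third control of the ataxin-3 line. Without each replicate number in turn, log2 differences ran from 0.0972 to 0.2001 for the rRNA share (cortex minus hypothalamus), -0.1965 to -0.1816 for the tRNA share (cortex minus hypothalamus), -0.2742 to -0.2432 for rRNA per coding count in cortex minus hypothalamus, -0.452 to 0.0268 in brainstem minus hypothalamus and -0.2792 to 0.1777 in cortex minus brainstem, -0.4099 to -0.2302 for the mt-Nd6 ratio (cortex minus brainstem) and -0.2001 to -0.0948 for the nuclear ratio (brainstem minus hypothalamus). In these runs the rRNA share passed the threshold without replicate 1, and the other called values missed it in at least 1 run. Nuclear respiratory genes higher in cortex than in hypothalamus numbered 4 to 8 in the same runs, and 3 without the libraries holding pituitary or nasal RNA.

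The labels do not say what a replicate number marks. Of same-numbered libraries of other tissues 0, 0 and 2 of 12 pairs correlated above 0.1, so the numbers were not taken to pair them. The replicate block left the 12, 15 and 10 members called between tissues as they were in number. Pairing by number gave an adjusted p over the threshold for the tRNA share (cortex minus hypothalamus, -0.1913), the mt-Nd6 ratio (cortex minus brainstem, -0.3179) and the nuclear ratio (brainstem minus hypothalamus, -0.1604).

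Without the 2 rRNA-rich libraries, mt-Rnr1 in cortex minus brainstem was 0.3086, the rRNA share -0.0036 (brainstem minus hypothalamus) and 0.1618 (cortex minus brainstem), rRNA per coding count -0.5777 and 0.3211, and the nuclear ratio -0.0927 (brainstem minus hypothalamus). The brainstem ataxin-3 effects, against 1 control, were then -0.0504 for the share of all members, -0.1809 for the rRNA share, -0.1687 for the tRNA share, -0.1447 for rRNA per coding count, -0.1325 for the tRNA ratio, 0.7084 for the mt-Nd6 ratio, -0.0151 for mt-Rnr2 per mt-Rnr1, 0.0316 for the nuclear ratio and -0.0005 for early over late genes. Without the libraries holding pituitary or nasal RNA the hypothalamic ataxin-3 effects were 0.161 for the tRNA share, 0.2135 for the mt-Nd6 ratio and 0.014 for mt-Rnr2 per mt-Rnr1. The cause of these changes was not tested. Of 1755 member values past the threshold in neither setting, 147 differed in sign. For the uncounted tRNA genes, 3 counts stand for at most 0.137 CPM before TMM scaling, and why they were not counted was not tested.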
